A study of Mus musculus with 8 samples.

Results

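The genes described here encode the enzymes and cofactors that write, copy and remove DNA methylation, together with the core of Polycomb repressive complex 2. They were the 10 genes Dnmt1, Dnmt3a, Dnmt3b, Uhrf1, Tet1, Tet3, Ezh1, Ezh2, Suz12 and Eed, found by the gene symbol annotated to each array probe. Of these, 9 had a probe, with 16 probes in all, and Tet1 had none under that symbol. A probe above background on at least 2 of 8 arrays was kept, which left 9 probes of 7 genes, out of 9803 genes with a kept probe and 16593 genes with a named probe. Dnmt3a and Tet3 did not reach that level on any array.

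The arrays held RNA of enriched mouse ventricular cardiomyocytes (CMs) in 3 groups. Embryonic CMs came from fetal ventricles of a CD1 background at E15.5 (2 arrays). Hypertrophic adult CMs (ACMs), titled TAC, came from the ventricles of hypertrophic hearts of CD1 mice 7 days after an operation (3 arrays). Normal ACMs came from adult ventricles of a CD1 background, with control as the disease state and no operation named (3 arrays). The labels give no adult age. Embryonic CMs and hypertrophic ACMs differ in both stage and operation, whose parts cannot be told apart. The labels do not say whether replicates came from separate animals, so a p-value here covers spread among samples that may be technical only.

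In mammals, Dnmt1 copies methylation to the daughter strand of newly replicated DNA, and Uhrf1 brings it there by binding the half-methylated site. Dnmt3a and Dnmt3b set methylation on unmethylated CpG sites, and Tet enzymes oxidise methylated cytosine as a step toward its removal. Polycomb repressive complex 2 (PRC2) methylates histone H3 at silent genes. Ezh2 or Ezh1 is its catalytic subunit, Suz12 holds the complex together, and Eed binds the methylated histone and stimulates the enzyme. In mice, Ezh2 is the form of dividing cells and Ezh1 is the form that persists in many resting tissues.

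Promoter windows of all 10 genes were read from RefSeq (GRCm38.p6), each with 250 bases before and 50 bases after an annotated start, since several of the genes moved together. The windows were searched on both strands for the E2F motif, a site of cell cycle transcription factors, in the 4 spellings TTTCCCGC, TTTCGCGC, TTTGCCGC and TTTGGCGC. The motif was in 4 of 15 windows (26.7%), those of Uhrf1, Dnmt1, Ezh2 and Suz12, against 744 of 32851 windows in the whole table (2.26%). The 4 windows that hold the motif are shown, and capitals mark the motif or its reverse complement. Their genes were called higher in embryonic CMs, as was Dnmt3b, whose window held no match.
Uhrf1, window 2, chr17:56304063-56304362, plus strand: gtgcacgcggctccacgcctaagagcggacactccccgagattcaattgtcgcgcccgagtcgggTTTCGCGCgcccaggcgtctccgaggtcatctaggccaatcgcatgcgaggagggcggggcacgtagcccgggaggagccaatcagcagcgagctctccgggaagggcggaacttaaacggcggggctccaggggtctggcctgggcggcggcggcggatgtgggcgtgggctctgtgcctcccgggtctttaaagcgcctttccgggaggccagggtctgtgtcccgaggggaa
Dnmt1, window 3, chr9:20952574-20952873, minus strand: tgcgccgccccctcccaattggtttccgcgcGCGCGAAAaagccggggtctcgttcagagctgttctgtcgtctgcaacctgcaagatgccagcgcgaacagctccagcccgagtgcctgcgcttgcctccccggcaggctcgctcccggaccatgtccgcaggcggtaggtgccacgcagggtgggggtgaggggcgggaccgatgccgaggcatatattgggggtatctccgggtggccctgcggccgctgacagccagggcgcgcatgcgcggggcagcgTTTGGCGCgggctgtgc
Ezh2, chr6:47594981-47595280, minus strand: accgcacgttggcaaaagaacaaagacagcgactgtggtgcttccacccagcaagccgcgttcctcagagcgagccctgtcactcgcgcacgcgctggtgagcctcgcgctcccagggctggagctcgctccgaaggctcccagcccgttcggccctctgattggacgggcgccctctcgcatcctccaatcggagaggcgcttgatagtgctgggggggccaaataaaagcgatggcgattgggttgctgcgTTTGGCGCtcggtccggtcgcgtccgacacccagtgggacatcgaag
Suz12, chr11:79992856-79993155, plus strand: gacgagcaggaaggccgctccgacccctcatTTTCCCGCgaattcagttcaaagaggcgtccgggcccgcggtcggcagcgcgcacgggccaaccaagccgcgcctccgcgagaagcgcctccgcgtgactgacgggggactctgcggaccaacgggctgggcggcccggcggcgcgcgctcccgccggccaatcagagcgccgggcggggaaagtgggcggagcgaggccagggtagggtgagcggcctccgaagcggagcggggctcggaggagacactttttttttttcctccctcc

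Counting from the annotated start, the motif began at base -185 for Uhrf1, at bases -219 and 34 for Dnmt1, at base 4 for Ezh2 and at base -219 for Suz12. Dnmt3b, Eed, Ezh1, Tet1, Tet3 and Dnmt3a held no match in their windows. The cell cycle homology region TTTGAA, searched on both strands, was in 4 of the 15 windows, against 5878 of all windows (17.9%). Those 4 belonged to Dnmt1, Dnmt3b, Suz12 and Eed. No spelling of one motif contains the other. The windows of the 10 genes held a median of 23 CpG sites, against 7 in all windows, and windows differ in base composition. A match is a description of these letters and was not tested as a binding site.

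**Figure D1:**
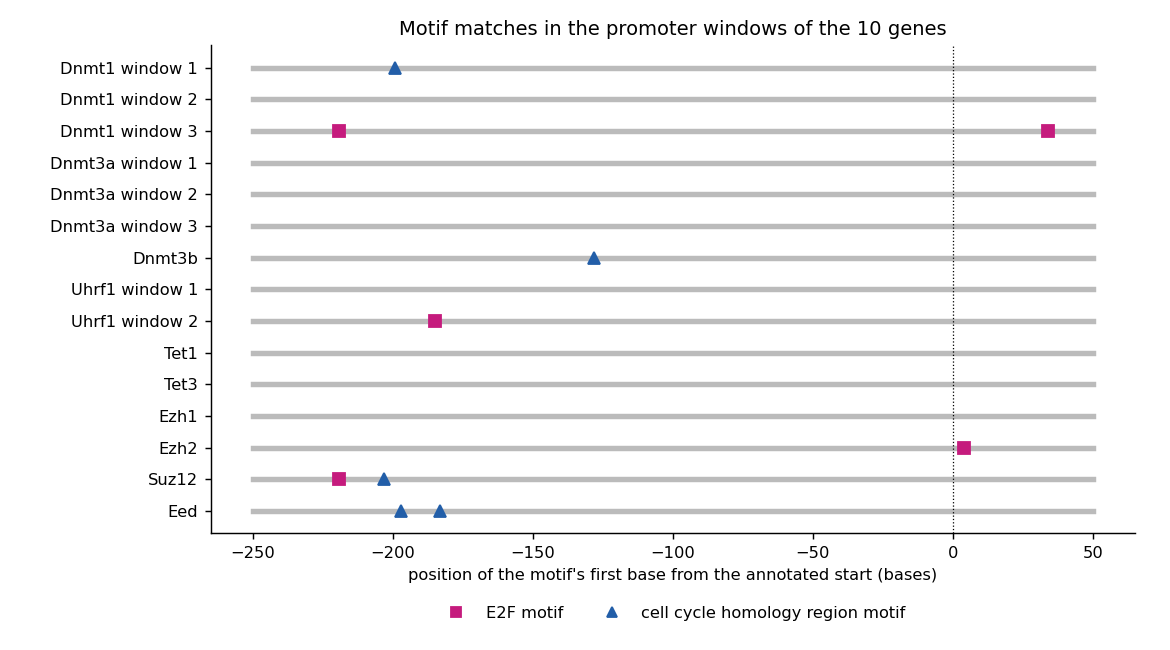
Positions of motif matches in the 15 promoter windows of the 10 genes, in bases from the annotated start (dotted line). Squares mark the E2F motif, which fell in 4 windows, and triangles mark the cell cycle homology region, which also fell in 4.

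Between 41.9% and 51.6% of probes were above background on an array, with the embryonic arrays highest. The lowest detected intensity was between 94.2 and 104.8 on the 8 arrays. Of 12 cardiomyocyte markers, 11 had a kept probe and Tnnt2 had no probe listed. The summed level of these 11 ranged from 147000 to 153300 in embryonic CMs, from 181600 to 193000 in hypertrophic ACMs and from 167400 to 174000 in normal ACMs, on the normalized linear scale. Of these 11, 5 were called lower and 1 higher in embryonic CMs than in normal ACMs (limma, adjusted p under 0.05). Against hypertrophic ACMs 5 were also lower and 1 higher. Between hypertrophic and normal ACMs 1 was higher and 0 lower. Of all tested genes, 22.7% were lower and 26.2% higher in embryonic CMs than in normal ACMs. Markers of other cell types were also present. Fibroblast markers summed to 5862 to 6463 in embryonic CMs, 7103 to 11510 in hypertrophic ACMs and 1942 to 3447 in normal ACMs.

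The first comparison asked how embryonic CMs differ from normal ACMs. Of the 7 genes, 5 were higher in embryonic CMs (Uhrf1, Dnmt1, Ezh2, Dnmt3b and Suz12), none was lower, also at an unadjusted p under 0.05, and Eed and Ezh1 did not pass the test (limma, Benjamini-Hochberg adjusted p under 0.05 over 9803 genes). The share of all tested genes called was 26.2% higher and 22.7% lower. The median log2 difference of the 7 genes was 2.41, and that of all genes was 0.01. The 5 called genes were above background on all 8 arrays, so none of them entered the test only through the embryonic arrays.

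Uhrf1, which guides maintenance methylation, differed most among the 7 genes. Its normalized log2 intensity was 11.02 and 10.67 in embryonic CMs, against 5.71, 5.40 and 4.97 in normal ACMs. Both embryonic arrays lay far above all normal arrays. The log2 difference was 5.49 (SE 0.26), or 45.0-fold with a 95% confidence interval of 30.0 to 67.5 (adjusted p = 6.63e-07). As deposited, before any correction, the probe read 3480.8 and 2266.9 in embryonic CMs, against 110.2, 112.1 and 102.5 in normal ACMs, where it stood just above the lowest detected intensity. A fold on this scale depends on the background correction for such dim probes: the log2 difference was 3.99 with no correction and 6.20 with the authors' normalized table, the lowest and highest of 21 alternatives. A second Uhrf1 probe was not above background on any array (80.5 to 94.8), so the difference rested on 1 of 2 probes. Uhrf1 has an E2F motif in the window shown above.

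Dnmt1, the maintenance methyltransferase, had log2 intensities of 9.36 and 8.95 in embryonic CMs, against 6.10, 6.33 and 5.88 in normal ACMs. The groups did not overlap. Dnmt1 was 8.29-fold higher (log2 difference 3.05, SE 0.21, adjusted p = 4.91e-06). Its only probe read 1268.1 and 815.9 in embryonic CMs, against 120.4, 143.2 and 116.4 in normal ACMs. With no background correction the log2 difference was 2.11, and it was 3.89 with median scaling.

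Among the de novo methyltransferases, Dnmt3b was higher in embryonic CMs and Dnmt3a was not measured above background. Dnmt3b had log2 intensities of 8.52 and 8.20 in embryonic CMs, against 5.66, 6.19 and 5.99 in normal ACMs, and the groups did not overlap. The log2 difference was 2.41 (SE 0.23, 5.32-fold, adjusted p = 3.59e-05). A second Dnmt3b probe was above background on only 1 embryonic and 1 hypertrophic array, and its log2 difference of 0.22 between embryonic CMs and normal ACMs was not called (adjusted p = 0.44 over 13494 kept probes). The 2 Dnmt3b probes therefore gave unlike differences. For the mean of probes the log2 difference was 1.32. With no background correction it was 1.5, and with median scaling 3.30.

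The 2 Dnmt3a probes read between 81.8 and 96.1 over the 8 arrays, with detection p-values of 0.20 and above. Those values lie in the range of the negative controls and have no order between groups. The 2 Tet3 probes read between 83.5 and 103.5. The lowest detection p-value for Tet3 was 0.07, on an embryonic array. No level of Dnmt3a, Tet3 or Tet1 can be given from these arrays, and an undetected probe does not show that the gene was silent.

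**Figure D2:**
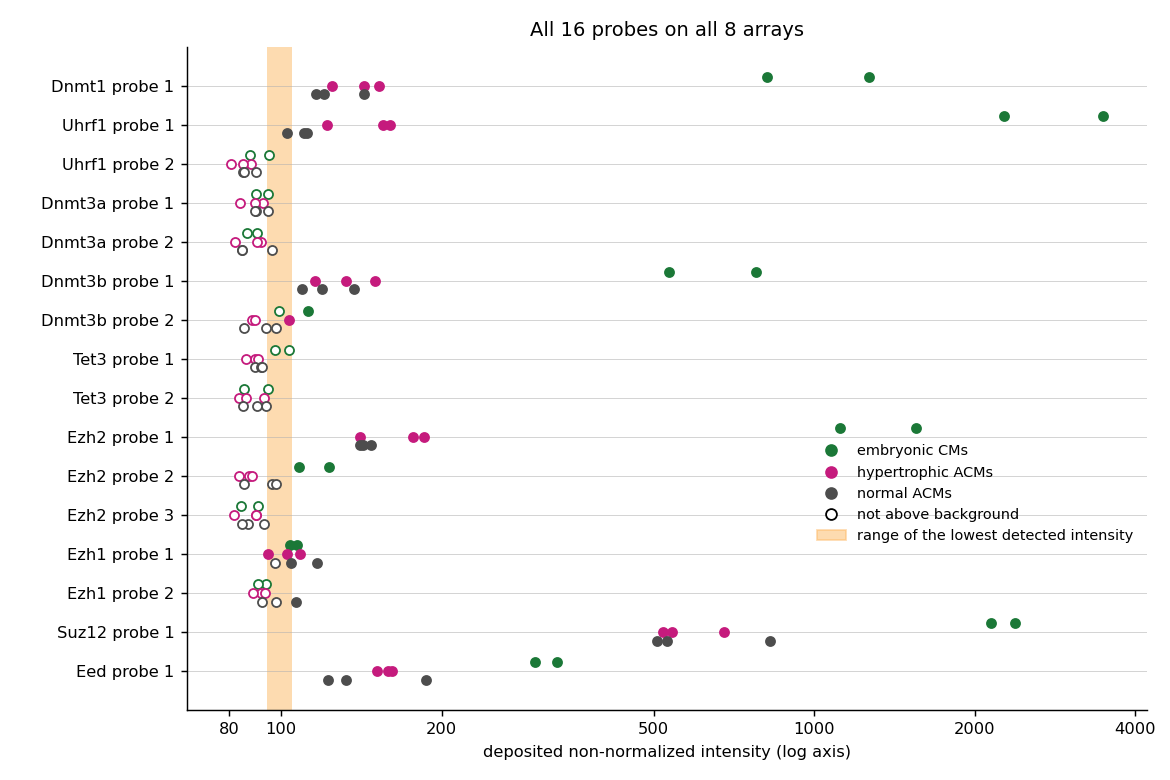
Deposited non-normalized intensity (log axis) of each of the 16 probes on each of 8 arrays, by group, with open circles for probes not above background on that array. The brightest probes of Uhrf1, Dnmt1, Dnmt3b, Ezh2, Suz12 and Eed were above background on all arrays, while all probes of Dnmt3a and Tet3 stayed within or below the band of the lowest detected intensity.

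In PRC2, Ezh2 and Suz12 were higher in embryonic CMs. Ezh2, the catalytic subunit of dividing cells, had log2 intensities of 9.69 and 9.48 in embryonic CMs, against 6.71, 6.41 and 6.65 in normal ACMs. The replicates of each group lay close together and the groups were well apart. Ezh2 was 7.98-fold higher (log2 difference 3.00, SE 0.20, adjusted p = 3.98e-06), a size near that of Dnmt1. A second Ezh2 probe was above background on the 2 embryonic arrays alone, with a log2 difference of 0.44 to normal ACMs that was not called (adjusted p = 0.09 over kept probes). The third was not above background on any array. The Ezh2 difference to normal ACMs thus rested on 1 of 3 probes. It was 1.72 on the log2 scale for the mean of probes and 3.83 with median scaling.

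Suz12, the scaffold subunit, was well above background in every group. Its log2 intensities were 10.22 and 10.78 in embryonic CMs, against 9.27, 9.66 and 9.37 in normal ACMs. The groups did not overlap, but the difference was smaller than for Ezh2 (log2 difference 1.06, SE 0.22, 2.09-fold, adjusted p = 0.00303). Without replicate 2 of the embryonic CMs it was 0.80 (adjusted p = 0.0375), and it was 1.68 with median scaling.

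Eed, the subunit that binds the methylated histone, did not pass the test. It had log2 intensities of 7.02 and 7.12 in embryonic CMs, against 6.16, 7.03 and 6.43 in normal ACMs. Replicate 2 of the normal ACMs lay between the embryonic arrays, so the groups overlapped. The log2 difference was 0.52 with a 95% confidence interval of -0.03 to 1.07 (adjusted p = 0.11). Without that replicate the log2 difference was 0.76 (adjusted p = 0.00837), and with array weights it was 0.58 (adjusted p = 0.0361). Scaling the arrays to a common median gave 1.47 (adjusted p = 0.00152), a setting that also moved the median of all genes to 0.52.

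Ezh1, the catalytic subunit of resting tissue, was close to background on all arrays but 1. Its brighter probe was above background on 7 of 8 arrays, with log2 intensities of 4.62 and 4.57 in embryonic CMs, against 4.74, 4.98 and 5.89 in normal ACMs. The embryonic values sat at the lowest detected level of their arrays, which was 4.57 on each. The log2 difference of -0.61 was not called (95% confidence interval -1.31 to 0.09, adjusted p = 0.14), although the 2 groups did not overlap. It was called under cyclic loess scaling (log2 difference -0.77, adjusted p = 0.02), with array weights (-0.75, adjusted p = 0.0491) and without replicate 1 of the normal ACMs (-0.88, adjusted p = 0.0421). Without replicate 3 of the normal ACMs, the highest array, it was -0.28 (adjusted p = 0.30). The second Ezh1 probe was above background on 1 normal array.

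**Figure D3:**
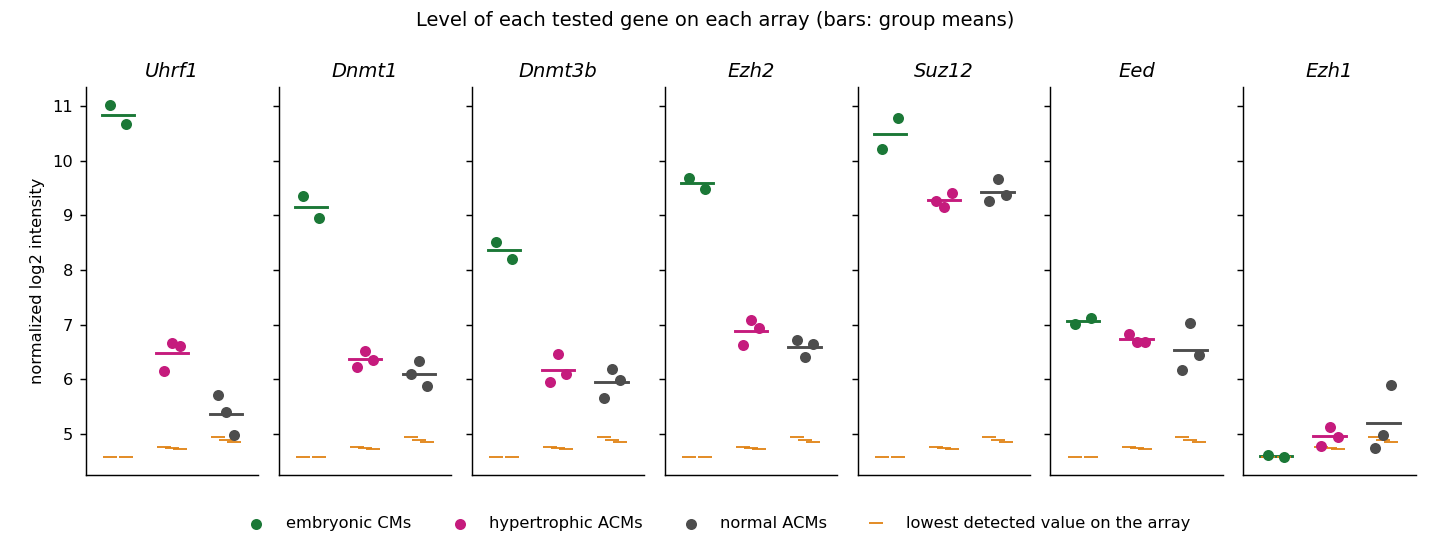
Normalized log2 intensity of the 7 tested genes on each array, with group means as bars and the lowest detected value of each array as a short dash. Both embryonic arrays stood above all adult arrays for Uhrf1, Dnmt1, Dnmt3b, Ezh2 and Suz12, a separation not counted over all genes. Ezh1 stayed near the dashes on all arrays but replicate 3 of the normal ACMs (5.89).

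The second comparison asked what differs in hypertrophic ACMs. Only Uhrf1 was called higher against normal ACMs among the 7 genes, and none was lower by limma, also at an unadjusted p under 0.05. Of all tested genes, 3.84% were called higher and 1.83% lower. The median log2 difference of the 7 genes was 0.22, and that of all genes was -0.02. The comparisons of embryonic CMs and of hypertrophic ACMs share the normal arrays, so their values are given side by side and were not correlated.

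Uhrf1 had log2 intensities of 6.15, 6.67 and 6.61 in hypertrophic ACMs, against 5.71, 5.40 and 4.97 in normal ACMs. The groups were apart, with all 3 hypertrophic arrays above the highest normal array. The log2 difference was 1.12 (SE 0.23, 2.17-fold, adjusted p = 0.0274). The deposited intensities were 122.1, 160.2 and 155.4 in hypertrophic ACMs, against 110.2, 112.1 and 102.5 in normal ACMs. On these 6 arrays the lowest detected intensities were between 94.2 and 103.1. The call was lost under 8 of 21 alternatives, with adjusted p from 0.0162 to 0.103 over all of them. Those 8 included the replicate block (adjusted p = 0.0525), leaving out replicate 2 or 3 of the hypertrophic ACMs (0.103 and 0.101) and leaving out replicate 3 of the normal ACMs (0.0724).

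Cell type markers moved with the same contrast. Of 10 measured fibroblast markers, 8 were higher in hypertrophic ACMs than in normal ACMs, and Ddr2 was below background on every array. Of 11 endothelial markers 2 were higher, with sums of 3358 to 5415 in hypertrophic ACMs and 1470 to 4422 in normal ACMs. Of 9 smooth muscle and pericyte markers 1 was higher and 2 were lower, with sums of 4870 to 7187 in hypertrophic ACMs and 9294 to 14030 in normal ACMs. None of 9 leukocyte markers was called by limma (3 were higher at an unadjusted p under 0.05), and Ptprc was below background on every array. The part of these cells in the Uhrf1 difference was not tested. In a bulk sample, more cells of a type and more RNA per cell cannot be told apart.

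The other 6 genes did not pass the test between hypertrophic and normal ACMs, and their groups overlapped. Dnmt1 had log2 intensities of 6.23, 6.53 and 6.35 in hypertrophic ACMs, against 6.10, 6.33 and 5.88 in normal ACMs. Its log2 difference was 0.27 (95% confidence interval -0.15 to 0.68, adjusted p = 0.46). Ezh2 had log2 intensities of 6.63, 7.09 and 6.93 in hypertrophic ACMs, against 6.71, 6.41 and 6.65 in normal ACMs. Here 2 of 3 hypertrophic arrays lay above the highest normal array. The log2 difference was 0.29 (interval -0.10 to 0.69, adjusted p = 0.38).

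Dnmt3b had a log2 difference of 0.22 (interval -0.24 to 0.69) and Eed one of 0.19 (-0.31 to 0.68). Suz12 had a log2 difference of -0.16 (interval -0.59 to 0.28) and Ezh1 one of -0.25 (-0.88 to 0.37). The upper bounds for Dnmt1, Dnmt3b and Ezh2 corresponded to 1.61-fold each, so an increase of up to that size lay within the intervals.

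The third comparison set embryonic CMs against hypertrophic ACMs. Uhrf1, Dnmt1, Ezh2, Dnmt3b and Suz12 were again higher in embryonic CMs, beside 23.8% of all genes called higher and 19.7% lower. Uhrf1 was 20.7-fold higher (log2 difference 4.37, SE 0.26, adjusted p = 3.12e-06). The log2 differences were 2.79 for Dnmt1, 2.70 for Ezh2, 2.19 for Dnmt3b and 1.22 for Suz12, with adjusted p of 0.00172 or lower. For each of these genes, both embryonic arrays lay above all 3 hypertrophic arrays. The share of all tested genes with groups apart in this way was not counted, so nothing particular to these genes is read from it. The second Ezh2 probe was below background in hypertrophic ACMs and at least 1.07-fold higher in embryonic CMs (adjusted p = 0.0351 over kept probes). It was kept only through the 2 embryonic arrays, so its call followed from the filter.

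Eed had log2 intensities of 7.02 and 7.12 in embryonic CMs, against 6.83, 6.69 and 6.67 in hypertrophic ACMs. These groups did not overlap, but the log2 difference of 0.34 was not called (95% confidence interval -0.22 to 0.89, adjusted p = 0.30). It was called under median scaling (1.18, adjusted p = 0.00624). Ezh1 had a log2 difference of -0.36 (interval -1.05 to 0.34), with values at the detection limit. The order of group means was embryonic CMs, hypertrophic ACMs and normal ACMs for Uhrf1, Dnmt1, Dnmt3b, Ezh2 and Eed. Only for Uhrf1 did the neighbouring hypertrophic and normal groups differ beyond their spread. For Suz12 the adult groups stood in the other order and did not pass the test either. Ezh1 ran in the reverse order, with no called difference.

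**Figure D4:**
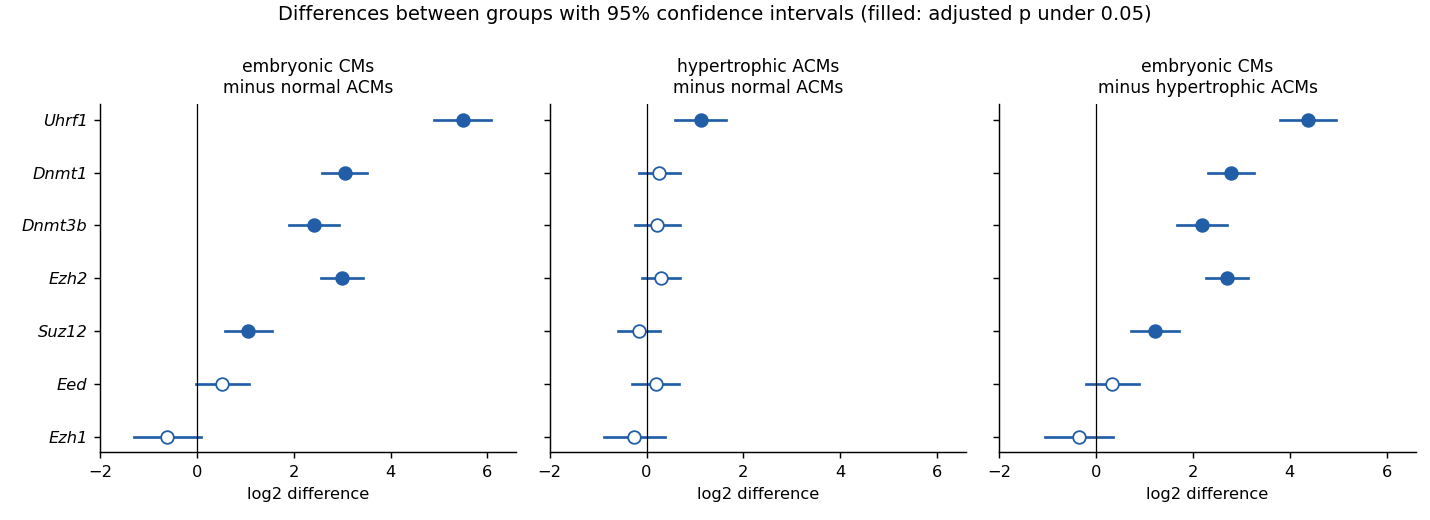
Log2 differences of the 7 tested genes in each of the 3 comparisons, with 95% confidence intervals from limma and filled points for adjusted p under 0.05. The 5 genes filled in both embryonic comparisons span 1.06 to 5.49, and Uhrf1 alone is filled between hypertrophic and normal ACMs, at 1.12.

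Other genes of both pathways were read from the same test. Of 20 other genes of DNA methylation, 12 had a kept probe. Between embryonic CMs and normal ACMs 2 of these were higher and 2 lower, with a median log2 difference of 0.16, and neither share exceeded that of all tested genes (26.2% and 22.7%). Uhrf2, a relative of Uhrf1, was higher, with log2 intensities of 11.12 and 11.33 in embryonic CMs, against 8.71, 9.37 and 8.93 in normal ACMs (log2 difference 2.22, SE 0.21, adjusted p = 3.54e-05). Mbd4, a glycosylase that repairs mismatches at methylated CpG sites, was below background in normal ACMs and at least 1.77-fold higher in embryonic CMs. It would not have been kept without the embryonic arrays, so its call rests in part on the filter.

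Lower in embryonic CMs were Zbtb38, which binds methylated CpG (log2 difference -1.29, SE 0.29, adjusted p = 0.00522), and Gadd45a, a stress protein linked to active demethylation (-1.24, SE 0.40, adjusted p = 0.0294). None of the 12 was called between hypertrophic and normal ACMs by limma, where 1 was lower at an unadjusted p under 0.05 and the median was -0.08. Hells, Mbd2, Dnmt3l and Ahcy had probes that were not kept.

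Of 7 other PRC2 subunits 4 had a kept probe. Mtf2, which brings PRC2 to CpG-rich DNA, was higher in embryonic CMs than in normal ACMs (log2 difference 0.71, SE 0.25, adjusted p = 0.0432). This was 1 of 4, beside 26.2% of all tested genes, so the count says nothing particular to PRC2. Rbbp7, Aebp2 and Phf19 were not called, and by limma none of the 4 was called between hypertrophic and normal ACMs, with 0 at an unadjusted p under 0.05.

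Polycomb repressive complex 1 (PRC1) ubiquitinates histone H2A and reads the mark set by PRC2 through its Cbx subunits. Of 24 listed subunits 16 had a kept probe. Between embryonic CMs and normal ACMs 5 of these were higher and 3 lower, shares near those of all tested genes (26.2% and 22.7%), so the counts say nothing particular to PRC1. The Cbx readers moved in opposite directions. Cbx2 was higher (log2 difference 1.25, SE 0.19, adjusted p = 0.000501), while Cbx7 was below background in embryonic CMs and at least 3.75-fold lower there. Phc1, a polyhomeotic subunit, was higher by 1.22 (SE 0.20), and Bcorl1, a corepressor of a variant complex, was at least 1.39-fold higher. Bcorl1 would not have been kept without the embryonic arrays, so its call rests in part on the filter.

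The remaining called PRC1 genes, named after their values were seen, were Bcor (log2 difference 0.99) and Pcgf6 (0.62), which were higher, and Bmi1 (-1.01) and Pcgf5 (-0.67), which were lower in embryonic CMs. Pcgf5, a subunit of variant PRC1, was the one PRC1 gene called between hypertrophic and normal ACMs, at a log2 difference of 0.64 (SE 0.15, adjusted p = 0.0397). Of 7 erasers of Polycomb marks 5 had a kept probe, and Mysm1, a histone H2A deubiquitinase, was the only one called in the comparisons with normal ACMs, with a log2 difference of 0.58 for embryonic CMs (adjusted p = 0.0411). The demethylase genes Kdm6a and Kdm6b were not called in either comparison with normal ACMs. Between embryonic CMs and hypertrophic ACMs, 2 of the 5 erasers were higher (Kdm6b and Mysm1) and 1 was lower (Usp16), named after their values were seen. Of all tested genes 23.8% were higher and 19.7% lower there, and 26.2% were higher in embryonic CMs than in normal ACMs. Counts of so few genes say nothing particular to the erasers.

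Few known targets could be read. Of 9 listed genes bound by Polycomb in mouse heart, only Isl1 and Gata6 had a kept probe. Isl1, a factor of cardiac progenitors, was below background in both adult groups and at least 2.18-fold higher in embryonic CMs than in normal ACMs. It was kept only through the 2 embryonic arrays, so its call followed from the filter. Gata6 was higher by 1.11 (SE 0.18, adjusted p = 0.000847). Of 10 germline genes silenced by DNA methylation, only Ddx4 had a kept probe. It was above background on 2 normal arrays and on no other, so it entered the test only through the normal ACMs, and no difference is read from it.

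Genes of DNA replication are given beside these, since maintenance methylation follows the replication fork. Of 35 listed genes 29 had a kept probe. All 29 were higher in embryonic CMs than in normal ACMs, beside 26.2% of all tested genes, with a median log2 difference of 2.74. For 10 of them normal ACMs were below background, so a gene could pass the filter through the other arrays alone. Mcm10, Gins3, Pole, Rrm2 and Pcna were below background in both adult groups and were kept only through the embryonic arrays. The calls of these genes followed from the filter, and the median includes them. The summed level of the 29 ranged from 16480 to 18060 in embryonic CMs. It ranged from 3369 to 3638 in hypertrophic ACMs and from 2834 to 3186 in normal ACMs. Chaf1a, a histone chaperone of the fork, was the only one called between hypertrophic and normal ACMs (log2 difference 0.60, SE 0.14, adjusted p = 0.0392, named after its value was seen). At an unadjusted p under 0.05, 6 of the 29 were higher and 1 lower there. The part of dividing cells in the differences of the methylation and Polycomb genes was not tested.

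**Figure D5:**
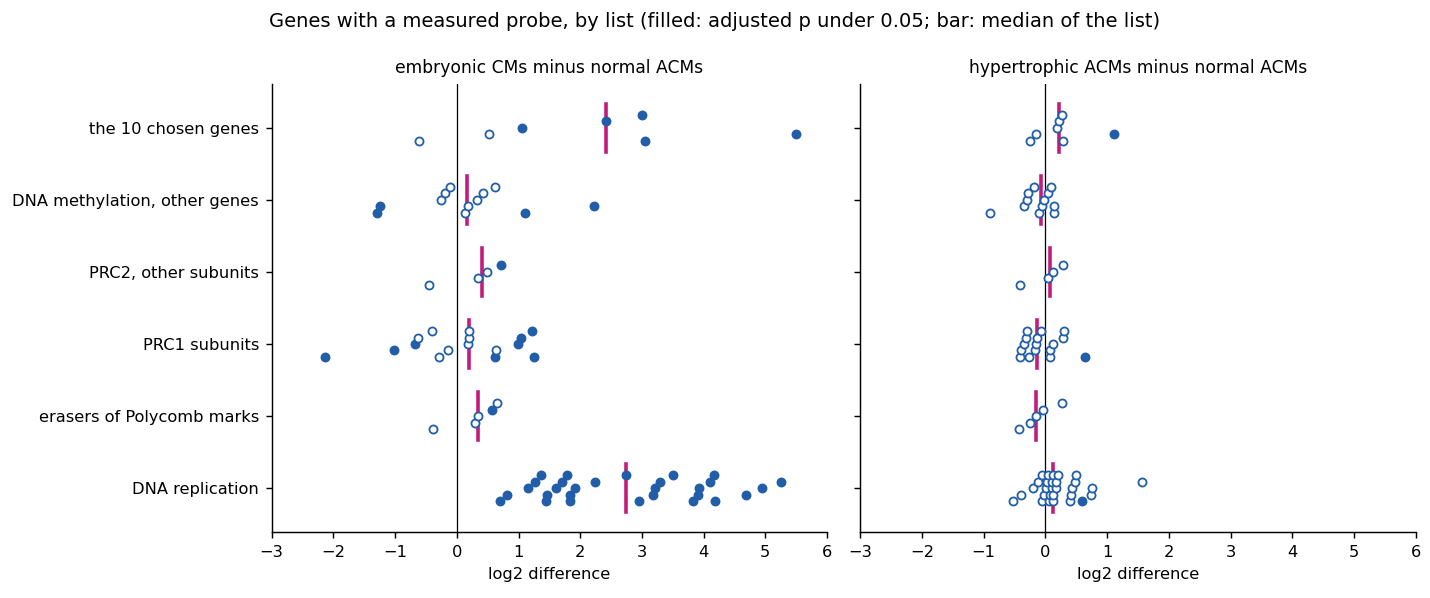
Log2 differences of every gene with a kept probe, by list, for embryonic CMs minus normal ACMs (left) and hypertrophic ACMs minus normal ACMs (right), with filled points for adjusted p under 0.05 and a bar at the median. The median of the replication genes was 2.74 on the left and 0.11 on the right, and on the left the medians were 0.16 for other methylation genes, 0.41 for other PRC2 subunits, 0.19 for PRC1 subunits and 0.35 for erasers.

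Other cell types differed between embryonic CMs and normal ACMs as well. Of the measured markers, 8 of 10 for fibroblasts, 8 of 11 for endothelium and 5 of 6 for erythroid cells were higher in embryonic CMs. Of all tested genes 26.2% were higher there. Erythroid markers summed to 34640 to 34940 in embryonic CMs and 212.5 to 1382 in normal ACMs. Endothelial markers summed to 8431 to 10520 in embryonic CMs and 1470 to 4422 in normal ACMs. Of 8 epicardial markers 5 were higher, and of 9 smooth muscle and pericyte markers 2 were higher and 2 lower. Only a bound could be given for 1 fibroblast, 1 endothelial, 3 erythroid and 4 epicardial markers. Kdr (endothelial), Hbb-bh1 and Slc4a1 (erythroid) and Krt19 (epicardial) were not detected in normal or hypertrophic ACMs. They were kept only through the embryonic arrays, so any call of these genes followed from the filter. The smooth muscle and pericyte markers summed to 28710 to 29500 in embryonic CMs and 9294 to 14030 in normal ACMs. The part of these cells in the differences of the 5 genes was not tested. Set against hypertrophic ACMs, the sums in embryonic CMs were lower for fibroblast and leukocyte markers. They were higher for endothelial, smooth muscle and pericyte, erythroid and epicardial markers. The calls did not all follow these sums. There, 1 smooth muscle and pericyte marker was called higher and 3 lower, with a median log2 difference of -0.32. Among fibroblast markers 1 was called higher and 1 lower, and no leukocyte marker was called.

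The genes with a profile most like that of Ezh2 over the 8 arrays, by root mean square log2 difference after centring, were Spdl1 (0.11), Cdk2 (0.12), Epha3 (0.14), Mmgt2 (0.15) and Prdx4 (0.17). Spdl1 acts at the kinetochore and Cdk2 is a kinase of DNA synthesis, but no role shared by all of these genes was tested. Most like Ezh1 were Spaca1 (0.14), Krt80, Ptgr1, Pcdhga7 and 4930402H24Rik (0.15 each). Ezh1 stayed near the detection limit on all arrays but replicate 3 of the normal ACMs (5.89). Its likeness to these genes therefore rests in large part on that 1 array.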

How the data were processed

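Each RNA sample was hybridised to 1 array of the Illumina MouseRef-8 v2.0 Expression type. The authors deposited the mean intensity of each probe on a linear scale, exported from GenomeStudio (version 2011 in the submitters' processing notes, version 2.0 in the series text) with neither background subtraction nor scaling between arrays. The deposited detection p-value of each probe compares it with negative-control beads of that array. A further table of intensity values, already background-subtracted and quantile-normalized by the authors, was used only as an alternative.

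Intensities were background-corrected and quantile-normalized with neqc of limma 3.58.1 (R 4.3.3), with an offset of 16 that shrinks the differences of dim probes. A probe was kept when its detection p-value fell under 0.05 on 2 or more of the 8 arrays, and the brightest kept probe represented its gene. Of 25697 probes, 23978 had 1 gene symbol and 1719 had none. Entrez identifiers of 23962 probes matched RefSeq and changed 0 symbols. The groups entered 1 linear model (lmFit, eBayes), with Benjamini-Hochberg adjustment over 9803 genes and calls at adjusted p under 0.05. A probe that no array of a group detected gave only a bound ("at least"), from the brighter group's mean against the lowest detected value of each array or the probe's own, whichever was higher. Quantile normalization sets all arrays to 1 distribution, so a shift common to most genes is lost.

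The 10 genes and the gene lists were chosen with earlier results of these data known. All 10 were named with every probe, as were up to 4 called genes a list in embryonic CMs, up to 2 in hypertrophic ACMs, and the 5 genes most like Ezh1 and Ezh2. The fit was tested on simulated data, with changes placed only in bright probes detected on every array. That simulation does not cover probes near background. Alternatives changed background, scaling, filter, probe choice, spread, samples and threshold. No arrays were identical (0 of 28 pairs), and their number limits the precision. Cell type markers, chosen by name, were summed over kept probes. Promoters were read with Python 3.11.15 and pandas 2.3.3, and figures drawn with matplotlib 3.10.9.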

Additional observations from a re-analysis of the deposited data

How the results depend on the processing

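Uhrf1, Dnmt1, Dnmt3b, Ezh2 and Suz12 kept their direction and their call in both embryonic comparisons under all 21 alternatives. Of 438 pairings of a gene's difference with an alternative, 421 kept direction and side of the threshold, 8 lost a call, 7 gained one and 2 changed sign. The 8 losses were all of Uhrf1 between hypertrophic and normal ACMs, so that the number of the 7 genes called higher there, 1, was 0 with no background correction (log2 difference 0.47, adjusted p = 0.0586), with the authors' normalized table (1.55, adjusted p = 0.075), with only the 2 groups in the fit (adjusted p = 0.0554), with the replicate block (adjusted p = 0.0525) and at a threshold of 0.01. It ranged from 0 to 1 when 1 replicate was left out. The number called higher between embryonic CMs and normal ACMs, 5, was 6 with Eed under median scaling, array weights and without replicate 2 of the normal ACMs, and between embryonic CMs and hypertrophic ACMs it was 6 with Eed under median scaling. The number called lower between embryonic CMs and normal ACMs, 0, was 1 (Ezh1) under cyclic loess and array weights, and 0 to 1 with 1 replicate left out. Between hypertrophic and normal ACMs the log2 difference of Eed ranged from -0.001 to 0.429 and that of Ezh1 from -0.499 to 0.096 with 1 replicate left out, changing sign without replicate 1 and replicate 3 of the normal ACMs in that order. Ezh1 did not pass the stricter filter. The cause of these changes was not tested.

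Over all genes, median scaling called 4561 higher and 1117 lower between embryonic CMs and normal ACMs (main setting 2573 and 2226), a split of 80.3% against 53.6% higher. It called 4333 and 1025 between embryonic and hypertrophic cells (main setting 2332 and 1935), and 346 and 80 between hypertrophic and normal ACMs (main setting 376 and 179). Median scaling moved the median of all genes by 0.52 and 0.48 in the embryonic comparisons. Between hypertrophic and normal ACMs the counts were 229 and 71 with only the 2 groups and 138 and 23 at a threshold of 0.01. With 1 replicate left out they ranged from 176 to 402 higher and from 49 to 181 lower, from 1707 to 2628 higher between embryonic CMs and normal ACMs, and from 1440 to 2446 higher and 1280 to 2085 lower between embryonic and hypertrophic cells. The hypertrophic counts were lowest without hypertrophic replicate 2 or 3, and the embryonic counts without either embryonic array. A lone embryonic array was assumed to vary like the others.

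Whether the replicate numbers pair the samples cannot be told from so few arrays, and the labels do not say. Same-numbered normal and hypertrophic arrays had correlated deviations of 0.126, 0.0426 and -0.044, and the replicate block called 333 higher and 122 lower between hypertrophic and normal ACMs. Probes near background limit what can be read of Ezh1, of the second probes of Dnmt3b and Ezh2, and of Uhrf1 in adult cells. The brightest probes of Dnmt1, Dnmt3b and Ezh2 were also dim in normal ACMs. Their differences to embryonic CMs were smaller with no background correction.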
